A study of Mus musculus with 59 samples.

Results

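The liver samples of mice that received 5 daily doses of baclofen or vehicle are described here. They are the 12 of 59 arrays whose titles name liver, 5 days and either agent: 8 baclofen livers and 4 vehicle livers. All came from B6C3F1 mice, the hybrid offspring of C57BL/6 females and C3H males. Vehicle mice were dosed with 0.5% methylcellulose, a suspending agent, and the piece of liver was cut from the left lateral lobe 2 h after the last dose. The series also holds livers taken after 1 dose (3 vehicle and 4 baclofen arrays), and bone marrow and spleen at both times. The baclofen dose, the animals' sex and age and the hour of dosing are not in the labels used here. Replicates are numbered without a statement that each is a separate animal, so p-values measure the spread between these samples.

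Baclofen is a muscle relaxant that activates the GABA-B receptor, a G protein-coupled receptor best known in nerve cells. Liver adjusts glucose release, amino acid use and fat handling to the hormones it receives. Insulin represses genes such as Igfbp1, G6pc and Pck1 by keeping FOXO1 out of the nucleus, while glucagon, through cyclic AMP, and glucocorticoids raise many of the same genes. Liver also carries a circadian clock whose transcripts follow feeding and hormones, and it secretes acute phase proteins when cytokines such as interleukin-6 reach it.

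Values are log2 of the deposited array intensity, so a difference of 1 is a 2-fold change. In bulk tissue, fewer cells of a type and less RNA per cell cannot be told apart. Of 10916 genes bright enough to test, 1159 passed an adjusted p of 0.05 in limma, which is 10.6% of the genes tested: 531 rose (4.86%) and 628 fell (5.75%). The median log2 fold change over all genes tested was -0.02. Changes of 2-fold or more were mostly rises: 79 genes (0.724%) rose at least 2-fold and 28 (0.257%) fell at least 2-fold. For 599 genes (5.49%) the baclofen and vehicle livers did not overlap, and 515 of these were among the 1159. Hepatocyte markers stood at 14.51 to 14.57 in the vehicle livers and 14.54 to 14.60 in the baclofen livers, as means over 12 genes, so the tissue matched its label.

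2 arrays stood apart from their groups. Over all genes tested, baclofen replicate 8 had a residual SD of 0.27 around its group mean, against 0.13 to 0.16 in the other 7 baclofen livers. It was the highest or lowest of the 8 for 44.6% of genes, against 16.5% to 30.6% for the others. Among vehicle livers replicate 2 had the largest residual SD, 0.23, against 0.16 to 0.20. Without vehicle replicate 3 the count of genes past the threshold was 584, and without vehicle replicate 2 it was 710. Leaving out vehicle replicate 2 and baclofen replicate 8 together gave 775, 386 up and 389 down. The difference between the 3' and 5' control probes, a measure of RNA integrity, was 0.42 to 0.57 in vehicle and 0.37 to 0.49 in baclofen livers, and with it as a covariate 739 genes passed. Its part in the differences was not tested further.

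**Figure D1:**
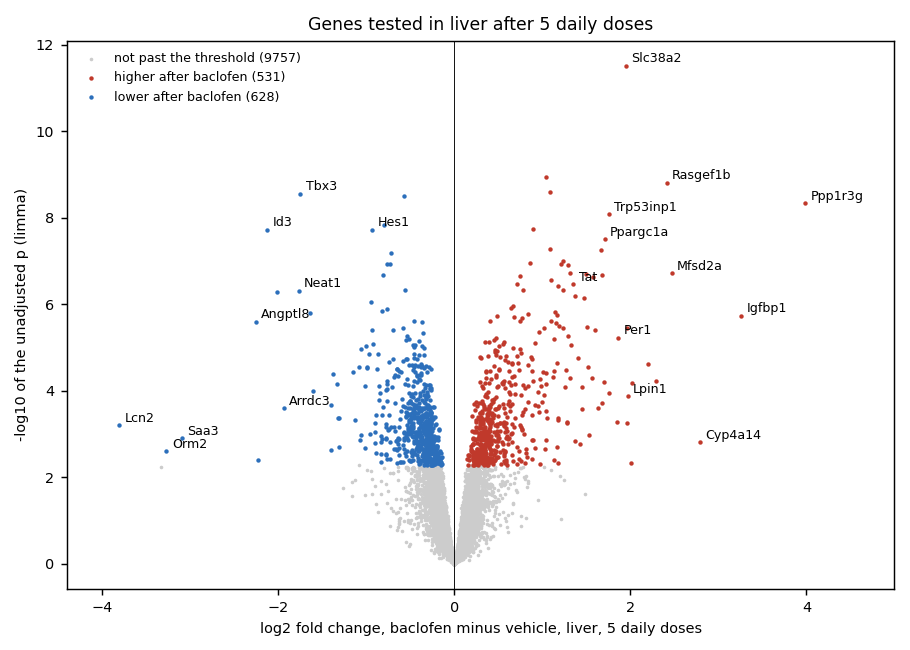
Each point is 1 of the 10916 genes tested in liver after 5 daily doses. The horizontal axis gives the log2 fold change (baclofen minus vehicle) and the vertical axis -log10 of limma's unadjusted p. Of the 531 rises (red) 79 lie at 2-fold or more, of the 628 falls (blue) 28 do, and Slc38a2 has the smallest p.

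Promoter windows are shown for 3 pairs of genes that moved together: a pair repressed by insulin, a pair of clock genes and a pair of acute phase genes. Each is the RefSeq window of 250 bases before to 50 bases after the gene's start, in build GRCm38.p6, read along the gene's strand. The windows lie at chr11:7197537-7197836 (plus strand) for Igfbp1, chr11:101367466-101367765 (plus strand) for G6pc, chr11:69098699-69098998 (plus strand) for Per1, chr3:95882179-95882478 (minus strand) for Ciart, chr4:63362199-63362498 (plus strand) for Orm2 and chr7:46715627-46715926 (minus strand) for Saa3. Capitals mark the core of an insulin response element (TGTTTTG or its complement CAAAACA) in Igfbp1 and G6pc, the E-box CACGTG in Per1 and Ciart, a C/EBP site (TTGCNNAA or TTNNGCAA) in Orm2 and Saa3, and a TATA box (TATAAA) in G6pc and Orm2. Other matches are left in lower case.
Igfbp1: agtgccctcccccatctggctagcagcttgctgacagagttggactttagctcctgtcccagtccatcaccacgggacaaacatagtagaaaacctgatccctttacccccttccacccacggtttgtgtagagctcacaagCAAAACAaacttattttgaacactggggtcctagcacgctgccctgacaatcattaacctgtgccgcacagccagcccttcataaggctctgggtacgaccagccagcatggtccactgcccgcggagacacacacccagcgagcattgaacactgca
G6pc: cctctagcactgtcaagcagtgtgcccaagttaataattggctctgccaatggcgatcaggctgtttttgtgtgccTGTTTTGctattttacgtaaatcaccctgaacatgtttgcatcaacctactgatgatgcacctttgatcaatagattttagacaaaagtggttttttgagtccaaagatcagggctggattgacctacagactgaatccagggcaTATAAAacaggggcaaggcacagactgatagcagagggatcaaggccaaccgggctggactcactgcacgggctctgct
Per1: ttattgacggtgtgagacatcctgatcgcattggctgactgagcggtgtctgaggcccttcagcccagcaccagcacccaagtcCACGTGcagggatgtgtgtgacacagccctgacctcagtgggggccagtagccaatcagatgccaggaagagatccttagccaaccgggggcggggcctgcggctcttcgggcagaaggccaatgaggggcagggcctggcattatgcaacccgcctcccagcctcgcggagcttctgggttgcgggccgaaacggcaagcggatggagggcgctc
Ciart: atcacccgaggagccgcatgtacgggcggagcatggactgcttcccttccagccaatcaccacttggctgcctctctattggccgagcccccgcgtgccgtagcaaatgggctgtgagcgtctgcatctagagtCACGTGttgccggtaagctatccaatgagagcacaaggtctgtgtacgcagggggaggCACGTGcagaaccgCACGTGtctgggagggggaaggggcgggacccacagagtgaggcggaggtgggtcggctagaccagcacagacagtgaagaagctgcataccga
Orm2: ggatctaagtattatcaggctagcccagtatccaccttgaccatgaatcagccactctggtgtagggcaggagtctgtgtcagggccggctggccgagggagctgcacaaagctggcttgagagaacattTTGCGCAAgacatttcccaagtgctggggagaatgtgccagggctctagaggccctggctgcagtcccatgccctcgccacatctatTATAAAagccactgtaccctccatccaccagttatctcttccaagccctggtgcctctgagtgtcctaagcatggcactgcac
Saa3: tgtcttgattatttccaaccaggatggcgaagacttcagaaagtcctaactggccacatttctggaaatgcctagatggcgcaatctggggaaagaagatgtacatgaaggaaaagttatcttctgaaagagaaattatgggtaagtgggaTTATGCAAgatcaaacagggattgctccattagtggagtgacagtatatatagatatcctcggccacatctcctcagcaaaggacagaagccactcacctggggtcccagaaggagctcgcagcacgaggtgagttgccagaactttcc
Both strands were searched. The insulin element lies 108 bases before the start in Igfbp1 and 174 bases before it in G6pc. Ciart holds 3 E-boxes, at 116, 58 and 44 bases before the start, and the Per1 window shown, 1 of 2 for that gene, holds 1 at 166 bases. The C/EBP match lies 120 bases before the start of Orm2 and 99 bases before that of Saa3. Of all 32851 promoter windows, 6.28% hold the insulin element, 7.15% the E-box, 10.8% the C/EBP site and 13.6% the TATA box on either strand. Among tested genes with a window, an E-box was found for 71 of 440 that rose (16.1%), for 53 of 514 that fell (10.3%) and for 1063 of all 8840. The insulin element was found for 6.59% of those that rose, 4.67% of those that fell and 5.20% of all. A match describes these letters only, and no test was made.

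Many genes of glucose release that insulin holds down rose. Of 24 tested genes of gluconeogenesis and insulin repression, 10 rose, 1 fell and 13 did not pass, with a median log2 fold change of 0.31, against -0.02 over all genes. Here and for each list below, the shares over all genes tested were 4.86% for rises and 5.75% for falls. Igfbp1, a secreted binding protein of insulin-like growth factors, stood at 8.45, 8.88, 9.88 and 10.29 in the 4 vehicle livers and at 11.91 to 13.52 (median 12.69) in the 8 baclofen livers. Every baclofen liver lay above every vehicle liver, which held for 2.59% of genes tested. The rise was 9.56-fold, or 3.26 ± 0.48 on the log2 scale (SE, adjusted p = 0.000402). Pck1, phosphoenolpyruvate carboxykinase, the enzyme that commits carbon to glucose synthesis, stood at 12.76, 12.56, 12.56 and 13.25 in vehicle and narrowly at 13.57 to 13.75 (median 13.68) in baclofen livers. It rose by 0.89 ± 0.10 (adjusted p = 1.71e-05). G6pc, whose enzyme removes the phosphate so that glucose can leave the cell, stood at 11.69, 11.14, 11.38 and 11.43 in vehicle and at 11.76 to 13.02 in baclofen livers. The groups did not overlap, and the rise was 0.97 ± 0.19 (adjusted p = 0.00308).

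Several regulators of glucose release also rose. Ppargc1a, the coactivator PGC-1alpha, stood at 7.25, 7.47, 7.15 and 7.57 in vehicle and at 8.57 to 9.56 (median 9.09) in baclofen livers, with no overlap, and rose 3.27-fold (1.71 ± 0.19, adjusted p = 2.64e-05). Foxo1, the transcription factor that insulin restrains, rose by 1.09 ± 0.10 (adjusted p = 5.86e-06), from 8.26 to 8.74 in vehicle to 9.24 to 9.74 in baclofen livers. Its relative Foxo3 rose by 1.02 ± 0.16 and Klf15, a factor for amino acid-fed gluconeogenesis, by 1.01 ± 0.19. Cited2, a coregulator also listed here, fell by 0.87 ± 0.16. These 5 genes kept their calls when each array was left out in turn. Pcx, pyruvate carboxylase, had a log2 fold change of -0.08 ± 0.07 (adjusted p = 0.539), and Fbp1, fructose-1,6-bisphosphatase, 0.10 ± 0.05 (adjusted p = 0.194).

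Of 18 tested genes that insulin and feeding induce, 0 rose and 1 fell (5.56%, against 5.75% of all genes that fell). The median log2 fold change was 0.21, with 15 differences positive and 3 negative. By limma 17 did not pass, and with each array left out in turn the count of rises ranged from 0 to 3. The gene that fell was Angptl8, a fed-state hepatokine that restrains lipoprotein lipase. It stood at 11.04, 10.39, 10.24 and 9.29 in vehicle and at 7.41 to 8.56 (median 7.91) in baclofen livers, every one below every vehicle liver, and fell by 2.26 ± 0.34, or 4.77-fold (adjusted p = 0.000484). The lipogenic genes did not pass. Srebf1, their insulin-driven regulator, had a log2 fold change of 0.37 ± 0.30 (adjusted p = 0.453), Fasn, fatty acid synthase, 0.08 ± 0.31 (adjusted p = 0.896), and Pklr, pyruvate kinase, 0.18 ± 0.19 (adjusted p = 0.587). The insulin receptor gene Insr had 0.16 ± 0.09 (adjusted p = 0.294).

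A few genes of glycogen and glucose handling rose. Ppp1r3g, a subunit that directs protein phosphatase 1 to glycogen, was dim in the vehicle livers, at 4.37, 4.71, 4.52 and 5.11, and stood at 8.13 to 9.40 (median 8.56) in the baclofen livers. The vehicle mean, 4.68, lay under the lowest mean that the brightness filter passed (an intensity of 42.9 on the linear scale), so the gene was tested only because it was bright in the baclofen livers. Its difference of 3.99 ± 0.39 is therefore given as a description, with no fold. Of 20 tested members of this list 4 passed as higher and 0 fell. That count includes Ppp1r3g, which passed the filter only through the baclofen livers, so its call is no support for a rise of the list. The others were Slc2a1, a glucose transporter, Gbe1, the glycogen branching enzyme, and Ugp2, which makes the glycogen precursor UDP-glucose. Their rises were 0.66 ± 0.11, 0.40 ± 0.09 and 0.48 ± 0.11. Gys2, liver glycogen synthase, had 0.72 ± 0.24 (adjusted p = 0.0610) and Pygl, glycogen phosphorylase, 0.07 ± 0.09 (adjusted p = 0.651). In glycolysis control 5 of 22 tested genes rose and 2 fell, a count of rises that was 2 without vehicle replicate 3 and 9 without vehicle replicate 4. Pfkfb3, which sets the level of fructose-2,6-bisphosphate, stood at 6.96, 7.18, 6.44 and 7.19 in vehicle and at 7.23 to 8.96 (median 8.69) in baclofen livers, the lowest being replicate 8. It rose by 1.60 ± 0.25 (adjusted p = 0.000641). Txnip, an arrestin-family inhibitor of glucose uptake, rose by 1.14 ± 0.21, while its relative Arrdc3 fell by 1.94 ± 0.43, from 9.20 to 10.77 in vehicle to 6.39 to 9.21 in baclofen livers.

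**Figure D2:**
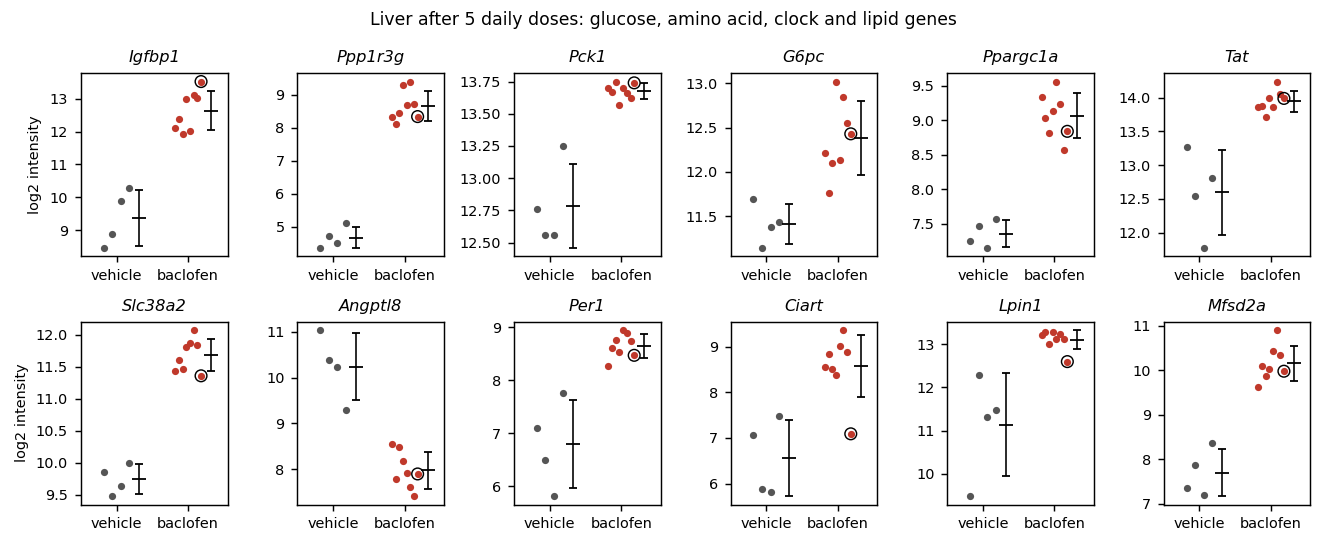
Log2 intensity of 12 genes in the 4 vehicle livers (grey) and the 8 baclofen livers (red) after 5 daily doses, with the mean and SD of each group beside the points. The circled point is baclofen replicate 8. The groups separate for every gene but Ciart, where that array (7.09) lies inside the vehicle range.

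Some genes of amino acid uptake and breakdown rose as well. Slc38a2, the SNAT2 transporter of neutral amino acids, had the smallest p of all genes: it stood at 9.86, 9.47, 9.63 and 10 (rounded) in vehicle and at 11.36 to 12.08 (median 11.70) in baclofen livers. Both groups were tight and lay far apart, with a 3.85-fold rise (1.95 ± 0.12, adjusted p = 3.32e-08). Of 18 tested amino acid transporters 4 rose (22.2%, against 4.86% of all genes) and 0 fell. Among the rises was that of Slc7a2, a carrier of arginine and lysine, by 1.15 ± 0.17. Of 41 genes of the urea cycle and amino acid breakdown 11 rose and 1 fell (29.3% called, against 10.6% of all genes). Ass1, argininosuccinate synthase, rose by 1.45 ± 0.29 (adjusted p = 0.00401), with vehicle replicate 1 (9.17) inside the baclofen range of 9.06 to 9.81. The other urea cycle enzymes had smaller rises: Asl by 0.55 ± 0.12, Arg1 by 0.37 ± 0.07 and Cps1 by 0.20 ± 0.05. Otc did not pass (0.07 ± 0.08, adjusted p = 0.570), and Nags, which makes the activator of Cps1, fell by 0.37 ± 0.09, a call lost without vehicle replicate 2 (adjusted p = 0.0627). Transaminases rose, Tat of tyrosine by 1.35 ± 0.18 and Got1 of aspartate by 1.16 ± 0.17, and so did Tdo2, tryptophan dioxygenase, by 0.38 ± 0.07. In a list of genes enriched near the portal vein, which shares the urea cycle and glucose enzymes with the lists above, 8 of 18 rose and 0 fell.

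Genes that glucocorticoids induce had the largest share of rises among all lists with at least 8 tested members. Of 26 tested, 17 rose and 1 fell, and the median log2 fold change was 0.90. The mean of the 26 was 9.40 to 9.96 in the vehicle livers and 10.07 to 10.52 in the baclofen livers. Tat stood at 13.27, 12.54, 11.77 and 12.81 in vehicle and at 13.72 to 14.24 (median 13.93) in baclofen livers, without overlap (adjusted p = 0.000118). The C/EBP factor genes Cebpd and Cebpb rose by 1.67 ± 0.19 and 1.23 ± 0.15, Sgk1, a kinase of ion transport, by 1.32 ± 0.25, and Zbtb16, a zinc finger repressor, by 0.98 ± 0.19. Nfkbia, an inhibitor of NF-kB, rose by 0.72 ± 0.13. Fkbp5 and Tsc22d3, a receptor co-chaperone and the leucine zipper GILZ, rose by 1.28 ± 0.31 and 0.90 ± 0.24. Without vehicle replicate 1 Fkbp5 was just short of the threshold (adjusted p = 0.0502), and Tsc22d3 was short of it without vehicle replicates 2 or 3 (adjusted p up to 0.102). The metallothionein genes did not pass: Mt2 ranged over 8.07 to 13.71 in vehicle and over 12.14 to 13.20 in baclofen livers (1.48 ± 0.61, adjusted p = 0.123). The gene that fell was Lcn2, which is also an acute phase gene. Of the 18 calls, 12 held without each array in turn.

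Stress kinase and growth arrest genes overlapped with that list. Ddit4, an inhibitor of mTORC1, rose by 1.68 ± 0.36 (adjusted p = 0.00715), with 5.96 to 7.32 in vehicle and 7.14 to 9.47 in baclofen livers. Trp53inp1, a p53 target tied to autophagy, stood at 9.26, 9.54, 9.54 and 9.84 in vehicle and at 10.94 to 11.73 in baclofen livers and rose 3.38-fold (1.76 ± 0.18, adjusted p = 1.14e-05). Of 29 p53 and growth arrest genes, 7 rose and 5 fell, so the list did not move one way, and 7 of these 12 calls were lost without at least 1 array. Among 38 immediate early genes and MAP kinase feedback genes 9 rose and 2 fell. Plk3, a stress-induced kinase, rose by 1.96 ± 0.30, Dusp1, which switches off MAP kinases, by 1.45 ± 0.32, and Maff, a small MAF factor, by 1.12 ± 0.21. Phlda1 fell by 1.41 ± 0.31. Egr1 ran from 5.62 to 10.52 over the vehicle livers and did not pass (adjusted p = 0.914). Of 21 cyclic AMP response genes 5 rose (23.8%, against 4.86% of all genes) and 0 fell. Ppargc1a, Per1, Noct and Dusp1 among them are in other lists too. Hypoxia response genes had 7 rises and 0 falls of 20, led by Pfkfb3, Slc2a1, Ddit4 and Bnip3 (0.65 ± 0.14).

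A number of clock genes and their outputs rose, with wide spread among the vehicle livers. Of 24 tested, 8 rose and 1 fell, with a median of 0.57. Per1, a light- and hormone-responsive repressor of the clock, stood at 7.10, 6.50, 5.81 and 7.76 in vehicle and at 8.27 to 8.95 (median 8.67) in baclofen livers. Vehicle livers were spread more widely than baclofen livers, without overlap, and the rise was 1.86 ± 0.30 (adjusted p = 0.000882). Noct, a deadenylase with a strong daily rhythm, rose by 2.29 ± 0.44, Ciart, a repressor of CLOCK and BMAL1, by 2.02 ± 0.40, Usp2, a deubiquitinase, by 1.76 ± 0.36 and Nr1d2, REV-ERB beta, by 0.80 ± 0.18. Rora, an activator of Arntl transcription, rose by 0.55 ± 0.11. The activator gene Arntl had -1.13 ± 0.40 (adjusted p = 0.0776), Dbp 1.21 ± 0.68 (adjusted p = 0.272) and Nr1d1, REV-ERB alpha, -0.55 ± 0.22 (adjusted p = 0.112). Dbp ran from 7.66 in vehicle replicate 2 to 11.39 in vehicle replicate 4. The count of rises fell to 6 without vehicle replicate 2 and reached 11 without vehicle replicate 4. The hour of collection is not in the labels, and its part in these differences was not tested.

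Fat handling changed in both directions. Mfsd2a, a carrier of lysophosphatidylcholine with omega-3 fatty acids, stood at 7.36, 7.86, 7.19 and 8.36 in vehicle and at 9.62 to 10.91 (median 10.07) in baclofen livers, and rose 5.54-fold (2.47 ± 0.31, adjusted p = 8.48e-05). The phosphatidate phosphatases Lpin1 and Lpin2 rose by 1.97 ± 0.41 and 1.29 ± 0.21. For Lpin1 the vehicle livers stood at 9.47, 12.30, 11.31 and 11.47 and the baclofen livers at 12.60 to 13.28, so vehicle replicate 1 was far below the rest. Inhbe, which encodes the hepatokine activin E, fell by 1.38 ± 0.26. Of 36 genes of lipid droplets, lipolysis and hepatokines, 8 rose and 4 fell. Among the droplet coat genes, Plin4 rose by 1.28 ± 0.31 and Plin5 by 0.68 ± 0.17 while Plin2 fell by 0.65 ± 0.17. Each of the 3 lost its call without at least 1 vehicle array, with adjusted p up to 0.0621, 0.0544 and 0.104. In fatty acid oxidation 6 of 37 genes rose and 2 fell, against 4.86% and 5.75% of all genes, so the falls were near the general share. Of these 8 calls only that of Angptl4, an inhibitor of lipoprotein lipase (1.04 ± 0.28), held without each array in turn. Cyp4a14, a fatty acid hydroxylase driven by PPAR-alpha, had 4.81 to 7.98 in vehicle and 6.20 to 10.87 in baclofen livers. Its rise of 2.79 ± 0.76 did not pass without vehicle replicate 3 (adjusted p = 0.109) or 2 (adjusted p = 0.0693). Cpt1a, the entry step of mitochondrial oxidation, had 0.05 ± 0.11 (adjusted p = 0.825), Ppara itself -0.07 ± 0.13 (adjusted p = 0.769) and Fgf21 -0.17 ± 0.33 (adjusted p = 0.786).

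A minority of drug metabolism genes rose. Of 26 tested cytochrome P450 genes of families 1 to 3, 4 rose (15.4%, against 4.86% of all genes) and 0 fell. Of 48 conjugation and transport genes 9 rose (18.8%) and 0 fell. Without vehicle replicate 3 the rises were 1 and 3, and without vehicle replicate 4 they were 7 and 13. Cyp2b10, the classic target of the receptor CAR, stood at 7.67, 5.60, 5.46 and 6.64 in vehicle and at 7.55 to 9.49 (median 7.97) in baclofen livers, so vehicle replicate 1 overlapped. The rise was 1.96 ± 0.47 (adjusted p = 0.0127) and was lost without vehicle replicate 3 (adjusted p = 0.0666) or 2 (adjusted p = 0.0555). Cyp2c29 rose by only 0.25 ± 0.05, a call that held without each array. Nr1i2, the pregnane X receptor, rose by 0.75 ± 0.11 (adjusted p = 0.000480), Sult1d1, a sulfotransferase, by 1.02 ± 0.21 and Slco1a4, an uptake carrier of organic anions, by 1.26 ± 0.25. Cyp1a2 had -0.01 ± 0.11 (adjusted p = 0.969), Cyp2e1 0.07 ± 0.04 (adjusted p = 0.274), and Cyp7a1, the rate-limiting enzyme of bile acid synthesis, 0.17 ± 0.23 (adjusted p = 0.672). Of 24 tested NRF2 antioxidant genes 0 rose and 2 fell (8.33%, against 5.75% of all genes that fell). Osgin1, an NRF2 target, fell by 1.64 ± 0.24 (adjusted p = 0.000376). The other fall was Srxn1, a call lost without vehicle replicate 2 (adjusted p = 0.127) and without several other arrays. Nqo1 (0.32 ± 0.15, adjusted p = 0.180) and Hmox1 (-0.35 ± 0.14, adjusted p = 0.125), which are targets of the same factor, did not pass.

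**Figure D3:**
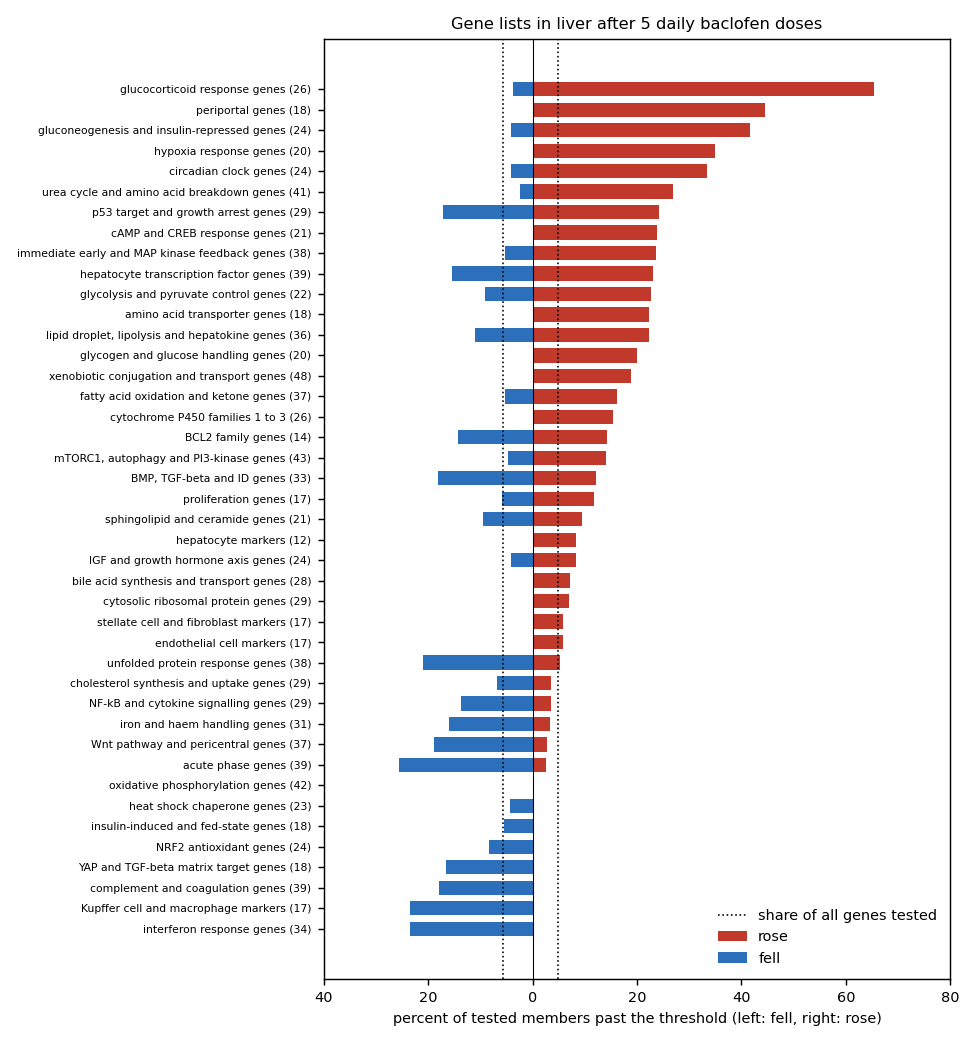
For each gene list with at least 10 tested members (number in brackets), the percent of tested members that rose (red, to the right) and fell (blue, to the left) in liver after 5 daily doses. Dotted lines mark the share among all genes tested, 4.86% up and 5.75% down. Glucocorticoid response genes reach furthest to the right (17 of 26) and acute phase genes furthest to the left (10 of 39).

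Part of the acute phase genes fell, with large differences between arrays. Of 39 tested, 10 fell and 1 rose, with a median of -0.29. Lcn2, which binds bacterial iron carriers, stood at 12.52, 12.79, 10.70 and 8.44 in the 4 vehicle livers and at 5.84 to 11.24 (median 6.85) in the baclofen livers. Vehicle replicate 4 was the lowest of its group and baclofen replicate 8, at 11.24, the highest of the other, so the groups overlapped. The fall was 14.0-fold (3.80 ± 0.93, adjusted p = 0.0136), and leaving out vehicle replicate 2 ended the call (adjusted p = 0.0618). Saa3, an amyloid A protein, fell by 3.09 ± 0.81 and Orm2, an orosomucoid, by 3.27 ± 0.94. Saa3 was at 12.07, 13.20, 10.36 and 7.79 in vehicle and at 7.22 to 8.26 in baclofen livers, so vehicle replicate 4 lay inside the baclofen range, and baclofen replicate 8 (8.12) was not apart from its group. Orm2 was at 13.51, 11.69, 9.93 and 8.95 in vehicle and at 6.69 to 11.30 in baclofen livers. The call of Saa3 was lost without vehicle replicate 1 or 2 (adjusted p up to 0.0975) and that of Orm2 without any of 7 arrays (adjusted p up to 0.115). None of the 11 calls held without each array in turn: the falls numbered 0 without vehicle replicate 2 and 20 without vehicle replicate 4. Without vehicle replicate 2 and baclofen replicate 8 there were 8 falls and 2 rises. Fibrinogen genes Fgb and Fgg came close to the threshold, at -0.20 ± 0.06 and -0.17 ± 0.06 (adjusted p = 0.0506 and 0.0503), and Crp had -0.19 ± 0.15 (adjusted p = 0.454).

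Some cytokine and interferon response genes fell as well. Irf1, an interferon-induced transcription factor, stood at 9.43, 9.01, 9.31 and 9.29 in vehicle and at 7.87 to 8.79 (median 8.33) in baclofen livers. Every baclofen liver lay below every vehicle liver, which held for 2.89% of genes tested, and the fall was 0.93 ± 0.15 (adjusted p = 0.000629). Tnfaip2, a gene induced by tumour necrosis factor, fell by 0.95 ± 0.13 (adjusted p = 0.000233), and Bcl3, an NF-kB cofactor, by 0.50 ± 0.12. Of 29 NF-kB and cytokine genes 4 fell and 1 rose (17.2% called, against 10.6% of all genes). The rise was that of the inhibitor Nfkbia, and 9 genes fell without vehicle replicate 4. Of 34 interferon response genes 8 fell, 0 rose and 33 had a negative difference, with a median of -0.34. Stat2, which carries the interferon signal to the nucleus, fell by 0.67 ± 0.13 and Parp14, a poly-ADP-ribose polymerase family member, by 0.67 ± 0.14. Ifi47, an immunity GTPase, fell by 1.32 ± 0.31, a call lost without vehicle replicate 2 (adjusted p = 0.0546). Without vehicle replicate 2 the list had 3 falls, and without vehicle replicate 4 it had 12. Of 39 complement and coagulation genes 7 fell (17.9%, against 5.75% of all genes) and 0 rose. The falls were by 0.21 to 0.49, and Mbl1, a mannose-binding lectin, and Serpinf2, antiplasmin, were the 2 that held without each array. The complement list had 2 falls without vehicle replicate 2 or without vehicle replicate 3, and 10 without vehicle replicate 4. Without vehicle replicate 2 and baclofen replicate 8 together it had 8, and the interferon list 3.

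Markers of liver macrophages were lower in the same samples. All 17 tested markers of Kupffer cells and other macrophages had a negative difference, with a median of -0.44, and 4 fell: Mpeg1, Lyz2, C1qc and Cd5l. Their mean was 8.13 to 8.67 in the vehicle livers and 7.71 to 8.21 in the baclofen livers. Mpeg1, perforin-2 of phagocytes, stood at 8.98, 9.60, 9.02 and 8.55 in vehicle and at 8.01 to 8.65 in baclofen livers (fall of 0.77 ± 0.19, adjusted p = 0.0145), and without vehicle replicate 2 none of the 17 passed. The Kupffer cell genes Clec4f (-0.41 ± 0.13, adjusted p = 0.0522) and Vsig4 (-0.44 ± 0.17, adjusted p = 0.106) did not pass, and neither did the general macrophage gene Adgre1 (-0.16 ± 0.18, adjusted p = 0.614). Of 16 measured neutrophil and granulocyte markers 5 were bright enough to test, and 2 fell, Lcn2 itself and Prtn3, proteinase 3 (1.31 ± 0.31, lost without vehicle replicate 3 at adjusted p = 0.0595). Defining neutrophil genes were near the bottom of the scale: Ngp was at 4.38 to 4.78 in vehicle and 4.43 to 4.78 in baclofen livers, and Camp at 4.06 to 4.46 and 4.20 to 4.58. Markers of T and natural killer cells had 0 of 5 past the threshold, and markers of B cells 0 of 3. The part of macrophage content in the interferon and acute phase differences was not tested.

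**Figure D4:**
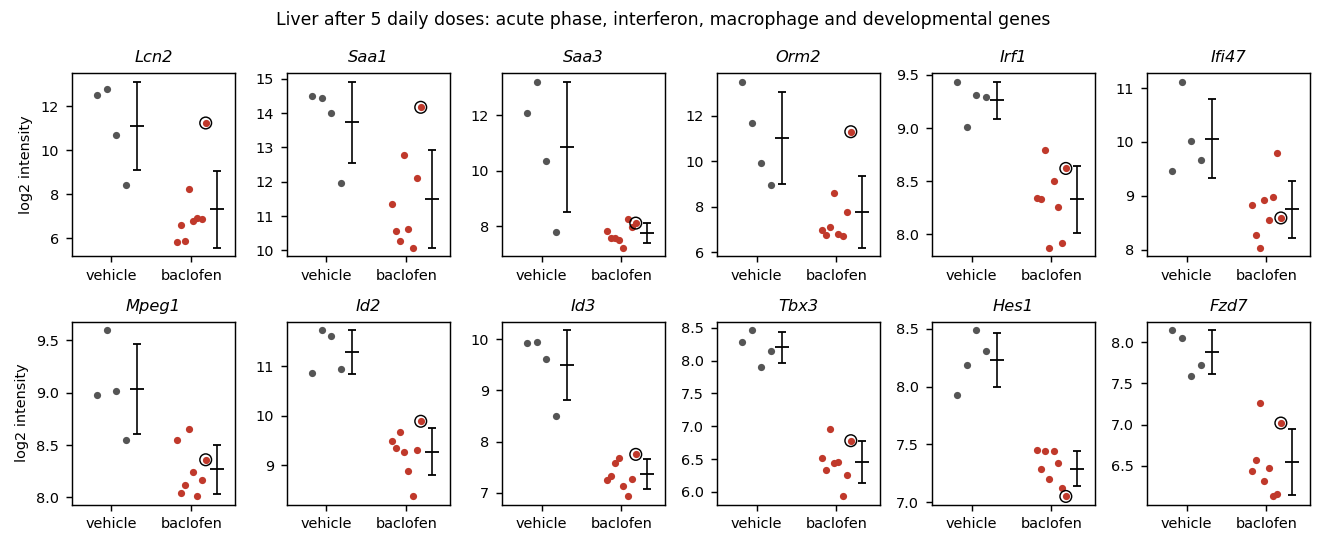
Log2 intensity of 12 genes that fell after 5 daily doses, in the 4 vehicle livers (grey) and the 8 baclofen livers (red), with each group's mean and SD. The circled point is baclofen replicate 8, which lies among the vehicle livers for Lcn2 (11.24), Saa1 and Orm2 (11.30) and below all 4 of them for Irf1, Id2, Id3, Tbx3 and Hes1.

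Among 33 BMP, TGF-beta and ID genes 4 rose and 6 fell (30.3% called, against 10.6% of all genes). Of these 10 calls 5 held without each array in turn. ID proteins block basic helix-loop-helix factors and are classic targets of BMP signals. Id2 stood at 10.86, 11.73, 11.62 and 10.95 in vehicle and at 8.37 to 9.89 (median 9.32) in baclofen livers, and Id3 at 9.92, 9.95, 9.61 and 8.49 against 6.93 to 7.75 (median 7.30). Neither overlapped, with falls of 2.01 ± 0.27 (adjusted p = 0.000151) and 2.12 ± 0.23 (adjusted p = 1.71e-05). Id1 fell by 0.68 ± 0.17, a call lost without vehicle replicate 2 or 4 (adjusted p up to 0.0716). The ligand gene Bmp2 rose by 0.48 ± 0.08 and the BMP co-receptor gene Hjv fell by 0.50 ± 0.11, while Hamp, hepcidin, a BMP target that limits iron uptake, had -0.34 ± 0.14 (adjusted p = 0.117). Hes1, the Notch target, was chosen after its values were seen: it fell by 0.94 ± 0.10 (adjusted p = 1.71e-05), from 7.93 to 8.49 in vehicle to 7.05 to 7.45 in baclofen livers.

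Of 37 Wnt pathway and pericentral genes 7 fell and 1 rose (21.6% called, against 10.6% of all genes). The T-box factor gene Tbx3 stood at 8.29, 8.47, 7.91 and 8.15 in vehicle and at 5.93 to 6.96 (median 6.44) in baclofen livers and fell 3.36-fold (1.75 ± 0.17, adjusted p = 5.86e-06). The frizzled receptor genes Fzd7 and Fzd5 fell by 1.33 ± 0.26 and 0.80 ± 0.08, Rnf43, which removes frizzled from the membrane, by 1.06 ± 0.18, Ccnd1, cyclin D1, by 0.99 ± 0.18 and Axin2, a feedback inhibitor, by 0.65 ± 0.12. All 6 of these held without each array in turn. Glul, glutamine synthetase of the cells around the central vein, did not pass, at -0.00 ± 0.09 (adjusted p = 0.987), and neither did Lgr5, a receptor that strengthens Wnt signals, at -0.36 ± 0.19 (adjusted p = 0.241). Of 18 YAP and matrix targets 3 fell (16.7%, against 5.75% of all genes), namely Ccn1, Yap1 and Ajuba. Ccn2, another YAP target, had 0.71 ± 0.28 (adjusted p = 0.111).

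Among 39 hepatocyte transcription factor genes 9 rose and 6 fell. Foxa2, a pioneer factor, stood at 9.61, 10.03, 9.43 and 8.99 in vehicle and at 8.12 to 8.68 in baclofen livers, and fell by 1.02 ± 0.20 (adjusted p = 0.00376). Cebpa fell by 0.36 ± 0.09 and Gata4 by 0.50 ± 0.11, while Cebpb, Cebpd and Klf3 (1.24 ± 0.16) rose. Hnf4a had -0.12 ± 0.08 (adjusted p = 0.378). Neat1, the long RNA of nuclear paraspeckles, fell by 1.77 ± 0.24 (adjusted p = 0.000143), from 10.94 to 11.49 in vehicle to 8.68 to 10.14 in baclofen livers.

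Several genes outside these groups also changed. Rasgef1b, an exchange factor for RAS-family GTPases, stood at 6.54, 6.44, 6.05 and 6.83 in vehicle and at 8.22 to 9.23 (median 8.93) in baclofen livers, without overlap, and rose 5.32-fold (2.41 ± 0.22, adjusted p = 5.58e-06). Pim3, a serine/threonine kinase, rose by 1.58 ± 0.20, Slc25a51, the mitochondrial carrier of NAD, by 1.29 ± 0.16 and Upp2, uridine phosphorylase, by 1.71 ± 0.33. Slc30a10, a manganese exporter, fell by 0.85 ± 0.17. Dnaic1, a dynein chain of cilia, fell by 1.09 ± 0.20, from 7.17 to 8.05 in vehicle to 5.87 to 7.03 in baclofen livers. The calls of these genes held without each array in turn.

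Some folding genes of the endoplasmic reticulum fell slightly. Of 38 unfolded protein response genes 8 fell and 2 rose (26.3% called, against 10.6% of all genes), with a median of -0.22. Ern1, the sensor IRE1, fell by 0.42 ± 0.10 and Ppp1r15a, which restores translation, rose by 0.47 ± 0.10. Those were the 2 calls that held without each array. Hspa5, the chaperone BiP, fell by 0.52 ± 0.16 (adjusted p = 0.0419), a call lost without any of 8 arrays (adjusted p up to 0.162). The count of falls ran from 2 without vehicle replicate 2 or 3 to 15 without vehicle replicate 4. Of 42 oxidative phosphorylation genes 0 passed in limma, and 37 had a positive difference with a median of 0.07. With vehicle replicate 4 left out 9 of them rose. Cytosolic ribosomal protein genes had 2 rises and 0 falls of 29, a share near the 4.86% of all genes, and both calls were lost without at least 1 array (0 to 3 rises).

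Many genes of GABA receptors and GABA metabolism were dim in liver. Of 19 measured genes of GABA receptors and GABA metabolism 8 were bright enough to test, and 0 passed. Gabbr1, the subunit of the GABA-B receptor that binds baclofen, stood at 5.87, 5.98, 6.07 and 5.96 in vehicle and at 5.91 to 6.13 (median 5.98) in baclofen livers (0.02 ± 0.06, adjusted p = 0.874). Abat, GABA transaminase, had 0.05 ± 0.10 (adjusted p = 0.787) and the GABA carrier gene Slc6a13 0.16 ± 0.07 (adjusted p = 0.185).

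Set against liver after 1 dose, most of the effect had the same sign. For 5 of the 7 livers at 1 dose the treatment written in the source field contradicts title and treatment field, which match one another and were used. After 1 dose 291 genes (2.67%) passed. The 155 genes that passed at both times were 13.4% of the 5-day calls and 53.3% of the 1-day calls, and 0 had opposite signs. Of the 1159 genes called at 5 days, 950 had the same sign at 1 day. The difference between the 2 effects was itself past the threshold for 2 genes (0.0183%), Fzd5 and Ccn1, the latter a matrix protein gene driven by YAP. Fzd5 was at 6.62 to 6.98 in vehicle and 6.74 to 7.01 in baclofen livers after 1 dose. After 5 doses it was at 6.88, 6.75, 6.75 and 6.88 in vehicle and at 5.79 to 6.25 in baclofen livers, and the change in effect, 5 doses less 1 dose, was -0.87 ± 0.14 (adjusted p = 0.0279). For Ccn1 the difference was -0.93 ± 0.15 (adjusted p = 0.0279). With each of the 19 liver arrays left out in turn, 0 genes passed for 10 of them and 6 passed without vehicle replicate 4 at 5 days. With the 1-dose groups taken from the source field, 72 genes passed, 51 with a higher effect at 5 doses and 21 with a lower one, these 2 among them. Tbx3 came next, at -1.33 ± 0.27 (adjusted p = 0.0941). Its baclofen livers were at 6.23 to 7.12 after 1 dose and 5.93 to 6.96 after 5, while its vehicle livers went from 6.94 to 7.07 after 1 dose to 7.91 to 8.47 after 5. Ccnd1 and Neat1 had the same pattern of values, with vehicle means of 7.90 and 10.27 after 1 dose against 8.71 and 11.22 after 5. Vehicle livers at 5 days against 1 day had 0 genes past the threshold in limma, with 779 at an unadjusted p under 0.05. Baclofen livers at 5 days against 1 day had 585 genes past the threshold, in groups of 8 and 4 arrays against 4 and 3 for vehicle. For the difference between the 2 effects, 1050 genes had an unadjusted p under 0.05 in limma.

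Set against the other tissues after 5 doses, the effect in liver differed from that in bone marrow for 700 of 9427 genes (7.43%), being higher in liver for 3.63% and lower for 3.80%. It differed from that in spleen for 1092 of 9395 (11.6%), higher for 5.94% and lower for 5.68%. Slc38a2 had the smallest p in both: its log2 fold change was 0.03 ± 0.11 in marrow and -0.02 ± 0.11 in spleen, and the liver effect was higher by 1.92 ± 0.16 and 1.97 ± 0.16 (adjusted p = 4.16e-13 and 1.65e-13). Coq10b, a coenzyme Q binding protein gene, rose 3.21-fold in liver (1.68 ± 0.21) and had -0.01 ± 0.14 in marrow and -0.23 ± 0.14 in spleen, with differences of 1.69 ± 0.20 and 1.91 ± 0.20. Id2 went the other way, with the liver effect lower by 2.08 ± 0.26 than in marrow and by 2.40 ± 0.26 than in spleen. Cebpd rose in liver and in spleen (0.73 ± 0.19, adjusted p = 0.00927) and fell in marrow (0.66 ± 0.19, adjusted p = 0.0375), and the liver effect was higher by 0.93 than in spleen (adjusted p = 0.0191) and by 2.33 than in marrow (adjusted p = 4.70e-08). Per1 and Ddit4 rose in all 3 tissues, and the difference of liver from marrow was -0.36 ± 0.34 (adjusted p = 0.566) for Per1 and -0.67 ± 0.45 (adjusted p = 0.395) for Ddit4. The median effect over the glucocorticoid list was 0.90 over the 26 genes tested in liver. It was 0.29 in marrow and 0.46 in spleen, over those of them also bright enough in that tissue. The 3 medians need not cover the same genes. Igfbp1, Ppp1r3g, Mfsd2a, Angptl8 and Tbx3 were not bright enough in both tissues for these tests. In 3 spleens hepatocyte transcripts were present, and without them the liver and spleen effects differed for 1106 genes. Only 720 of these were among the 1092. The liver effect was higher for 524 and lower for 582, against 558 and 534 with all spleens.

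**Figure D5:**
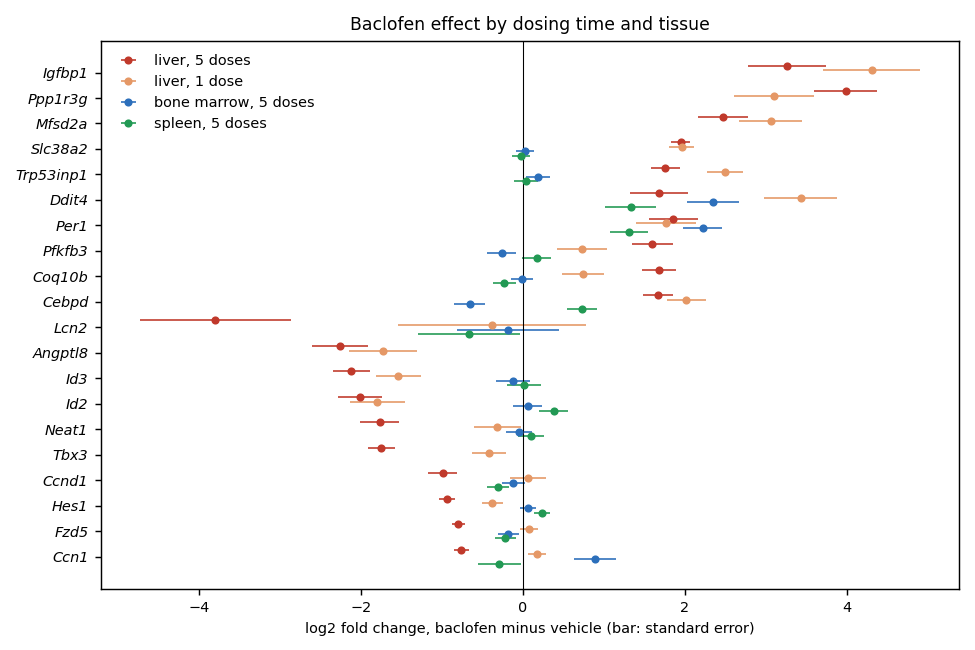
Log2 fold change (baclofen minus vehicle, bars are limma's SE) of 20 genes in liver after 5 doses (red) and 1 dose (orange), and in bone marrow (blue) and spleen (green) after 5 doses. A missing point means that the gene was not tested there. Slc38a2 and Neat1 lie near 0 in marrow and spleen, Id2 lies at 0.06 in marrow and 0.38 in spleen, Per1 and Ddit4 lie above 0 in all, and Tbx3, Ccnd1, Fzd5 and Ccn1 lie further below 0 at 5 doses than at 1.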

How the data were processed

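Gene expression was measured on 59 one-colour Affymetrix mouse arrays. Per the labels' protocols, the authors summarised probes with RMA, and the deposited values are linear intensity values per probe set. They were converted to log2 here. The labels also name limma, without a version. Tissues may have been normalized apart, so only differences within a tissue were set side by side. Of 45101 probe sets, 34945 carried 1 gene symbol in the platform annotation, 932 several and 9160 none, and 64 were controls. Each of 18193 genes was represented by its brightest probe set over the liver arrays, and the dimmest 40% of genes were left out, so that 10916 remained, with a mean intensity of at least 42.9.

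The 19 liver arrays were fitted as 4 groups (limma 3.58.1 in R 4.3.3, lmFit and eBayes, 15 residual degrees of freedom). The threshold was a Benjamini-Hochberg adjusted p of 0.05 over all genes. Differences between times used the same fit. Differences between tissues compared the 5-day effects in a fit over all 59 arrays of liver, marrow and spleen, at both times. On simulated data for the 5-day liver comparison with 10916 genes, 79% of changes of 0.5 and 98% of changes of 1 on the log2 scale were recovered, and 4.84% of calls were false. The simulated noise was normal and independent between genes and arrays, with no array that stood apart. These rates check the fit and are not the error rates of the measured arrays. Tables and figures were made with python 3.11.15, pandas 2.3.3, numpy 2.4.6, scipy 1.17.1 and matplotlib 3.10.9.

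Named genes were the 25 largest rises and falls past the threshold and every member past it in each of 49 gene lists. Where no member passed, up to 3 with the largest difference were taken. Added to these were the 8 smallest p-values of each difference between times or tissues, Gabbr1, and list members whose role is described. Not all of them are printed above. The samples, gene lists and tests were chosen with earlier results of these data known. Alternatives were other filters, probe set rules, normalizations, weights, thresholds, the replicate number as a block, groups from the source field, and each array left out. Leaving out the 2 arrays of largest spread, leaving out 3 spleens and the covariate for RNA integrity were added after seeing the data. Promoter sequences are RefSeq's, with 291 of 364 named or listed genes matched.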

Additional observations from a re-analysis of the deposited data

Results flagged for a closer look

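Single arrays far from the rest of their group were looked for in 116 groups of values, and chance flags about 1 in 20 groups. Baclofen replicate 8 was the array far from the other 7 in 7 genes and 1 list mean. It was lowest for Ciart (7.09), Lpin1 (12.60) and Pfkfb3 (7.23). It was highest for Lcn2 (11.24), Orm2 (11.30), Bnip3 (11.97) and Prtn3 (6.47), and for the mean of the 39 acute phase genes (12.41, against a median of 11.53). Baclofen replicate 3 was lowest for Fam107a (6.02), and vehicle replicate 4 was highest for Acot4, an acyl-CoA thioesterase (6.27).

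The baclofen effect after 5 doses differed from that after 1 dose for Fzd5 (-0.87) and Ccn1 (-0.93), by limma's test of the difference. Among the smallest p-values for liver against bone marrow, the liver effect was higher for Slc38a2 (1.92), Cebpd (2.33), Coq10b (1.69), Pim3 (1.5), Morc3 (1.24) and Chic2 (0.89). It was lower for Id2 (-2.08) and Stat5a (-0.72), the latter a transcription factor of growth hormone signalling. Against spleen the liver effect was higher for Rasgef1b (2.35), Slc38a2 (1.97), Coq10b (1.91), Slc25a51 (1.71), Gin1 (1.54) and Chic2 (0.86). It was lower for Id2 (-2.40) and for Ppp1r21 (-1.04), which rose in spleen by 1.00 ± 0.09 (limma, adjusted p = 5.55e-12) and had -0.03 in liver.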

How the results depend on the processing

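The 5-day liver comparison gave 1159 genes. It gave 720 with array weights, 739 with the RNA integrity covariate, 382 at an adjusted p of 0.01 and 287 at a change of at least 1.5-fold. Leaving out each array gave 584 (without vehicle replicate 3) to 1545 (without vehicle replicate 4), and 710 without vehicle replicate 2. With the replicate number as a block the counts were 385 for this comparison, 0 for the difference between times, 788 for liver against marrow and 1140 for liver against spleen. With the block, 128 of the 230 named genes past the threshold lost their call. Same-numbered vehicle and baclofen livers had correlations of -0.32 to -0.02 between their deviations. Baclofen livers numbered above 4 have no same-numbered vehicle liver, so these values cannot show whether the numbers mark a shared batch. Median centring split the calls 590 up and 511 down, against 531 and 628.

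The difference between times, 2 genes, became 0 with the filter at the 60th percentile, at an adjusted p of 0.01 and with the mean of probe sets, 3 with the covariate, 4 without the 2 arrays of largest spread and 72 with groups from the source field. Leaving out arrays gave 0 to 6. Liver against marrow, 700 genes, gave 1365 with array weights, 312 at an adjusted p of 0.01 and 488 to 865 without single arrays. Liver against spleen, 1092 genes, gave 406 at an adjusted p of 0.01 and 610 (without spleen vehicle replicate 2) to 1388 without single arrays. The cause of these shifts was not tested.

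Of 230 named genes past the threshold, 114 kept their call without each of the 12 arrays in turn, and 0 changed sign under any alternative run. Without vehicle replicate 2 or 3, 90 and 94 lost their call. The small number of arrays, 4 vehicle livers against 8 baclofen livers in the 5-day comparison, limits its precision.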
